A study of Rattus norvegicus with 12 samples.

Results

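The 8 transcripts described here have unrelated roles and were followed across primary rat hepatocytes exposed to 1-chloro-3-(4-chlorophenoxy) benzene (CCPB), triclosan, diclosan or the vehicle DMSO: Rassf9, Plscr2, Smarcd3, Dnd1, Calhm5, Pcp4l1, Colq and C1h11orf86. They were chosen by their log2 signal, which in the CCPB arrays lay far from that in the DMSO arrays, both in a fit by group and in a fit that also held the array slide as a fixed term. They are 8 of 20359 genes or transcripts that were measured, of which 10685 carry a gene symbol. Because the CCPB and DMSO arrays chose these genes, the CCPB differences from DMSO are a description and carry no test. The working name under which the genes were collected called them movers in CCPB only, and outside the enzymes and transporters of foreign-compound metabolism. The first part of that name is not kept here, since other groups also lay apart from DMSO. The 5 genes that were lower with CCPB sat below every DMSO array with triclosan and with diclosan. Pcp4l1 and Colq sat above every DMSO array with triclosan, Colq on arrays mostly not above background. These differences were smaller and missed the threshold for a call. Over all genes, arrays did not overlap with DMSO for 19% with triclosan and 16.1% with diclosan. The same DMSO arrays helped choose the genes, so these positions are a description and carry no test.

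The cells were cryopreserved hepatocytes of male Sprague Dawley rats, kept in culture for 24 h before a 24 h exposure to 30 µM of CCPB, triclosan or diclosan, or to DMSO alone. Each of the 4 groups has 3 one-colour Agilent arrays, and the labels do not say whether the 3 came from separate cultures or animals, so the spread between arrays may be technical. Triclosan, an antibacterial agent, and diclosan, its relative with a chlorine fewer, are diphenyl ethers with a phenolic hydroxyl group. CCPB is a diphenyl ether that carries as many chlorine atoms as diclosan, with no hydroxyl group. Values are given as log2 of the processed signal minus the 75th percentile of the array, so 0 is the 75th percentile, a difference of 1 is a 2-fold difference, and a level below 0 is still a measured level. Levels of different genes are not set against each other, since they come from different probes.

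The slide has to be read beside every CCPB value. The file headers place CCPB 1 to 3 and diclosan 3 on slide 2, and triclosan 1 to 3, diclosan 1 and 2 and DMSO 1 to 3 on slide 1. CCPB and slide 2 can therefore be separated from each other only through diclosan 3, the sole array that slide 2 holds from another group. Between 51.6% and 55.5% of probes were well above background per array. The summed signal of 11 hepatocyte markers, such as albumin and transthyretin, was 2330 to 2380 times the 75th percentile in CCPB arrays, 2210 to 2330 in triclosan arrays, 2190 to 2290 in diclosan arrays and 2270 to 2360 in DMSO arrays. The summed signal of the 7 measured of 11 stellate cell and fibroblast markers was 9.17 to 10.2 in CCPB arrays, 12.8 to 13.8 in triclosan arrays, 12.9 to 14.9 in diclosan arrays and 14.2 to 15.4 in DMSO arrays. Tagln, a smooth muscle protein gene, made up most of that sum at 7.15 to 8.1 in CCPB arrays and 11.6 to 13.4 in DMSO arrays, a difference of -0.72 on the log2 scale (limma, adjusted p = 0.00014, and -0.59 with an adjusted p of 0.0371 with the slide as a fixed term). The other 6 markers summed to 2.02 to 2.1 in CCPB arrays and 1.95 to 2.63 in DMSO arrays, and Acta2 was higher with CCPB by 0.42 on the log2 scale (limma, adjusted p = 0.0349, and 0.29 with an adjusted p of 0.571 with the slide as a fixed term). The 4 measured of 8 bile duct cell markers summed to 3.66 to 3.72 in CCPB arrays, 2.9 to 3.35 in triclosan arrays, 2.9 to 3.16 in diclosan arrays and 2.89 to 3.07 in DMSO arrays. Epcam made up most of it, with a CCPB minus DMSO difference of 0.33 (limma, adjusted p = 0.00942). With the slide as a fixed term it was 0.24 (adjusted p = 0.379). Of the 4 markers 3 passed as higher in the fit by group, against 14.3% of all genes, and none passed with the slide. The 4 measured of 10 endothelial markers summed to 9.51 to 9.84 in CCPB arrays, 7.58 to 8.15 in triclosan arrays, 8.08 to 9.72 in diclosan arrays and 8.16 to 8.61 in DMSO arrays. Vwf made up nearly all of it, and its CCPB minus DMSO difference was 0.21, against -0.02 with the slide as a fixed term. Of 12 macrophage markers 4 were measured, at a sum of 0.93 to 1.05 in CCPB arrays, 0.771 to 1.03 in triclosan arrays, 1.05 to 1.2 in diclosan arrays and 0.719 to 0.997 in DMSO arrays, and Cd163, Marco, Adgre1 and Ptprc were not well above background on all 3 arrays of any group. The part of these shifts in the values below was not tested, and in such samples fewer cells of a type and less RNA per cell cannot be told apart.

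The genes that were lower with CCPB have different roles in the cell. Rassf9 encodes a Ras-association domain protein found on recycling endosomes, where it binds the peptide-amidating enzyme Pam. Plscr2 encodes a member of the phospholipid scramblase family, whose proteins are known for moving lipids between the leaflets of a membrane. Smarcd3, also called Baf60c, is a subunit of the SWI/SNF (BAF) chromatin remodelling complex, where it takes the place of its paralogs Smarcd1 or Smarcd2. Dnd1 is an RNA-binding protein best known from germ cells, where it works with Nanos proteins and the CCR4-NOT deadenylase. Calhm5 belongs to the calcium homeostasis modulator family of large-pore channels. Of the genes that were higher, Pcp4l1 encodes a small protein with an IQ motif related to the calmodulin-binding protein Pcp4, and Colq encodes the collagen tail that anchors acetylcholinesterase at synapses. C1h11orf86 is the rat counterpart of an uncharacterised human open reading frame.

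Promoter sequences from the RefSeq table (build GRCr8) are held for 6 of the 8 genes, all but Plscr2 and Colq. Those shown belong to the largest decrease and to the increases with an entry. Each runs 5′ to 3′ along the gene's own strand over the 250 bases before the start site, and capitals mark AGGTCA or its reverse complement TGACCT, the hexamer that many nuclear receptors bind as a core element.
Pcp4l1, minus strand, chr13:86144900-86145149: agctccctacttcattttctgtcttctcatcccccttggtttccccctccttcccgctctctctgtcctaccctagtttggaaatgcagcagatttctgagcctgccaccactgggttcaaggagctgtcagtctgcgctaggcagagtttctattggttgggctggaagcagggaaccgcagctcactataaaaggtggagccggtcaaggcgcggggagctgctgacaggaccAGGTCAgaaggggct
C1h11orf86, minus strand, chr1:211215340-211215589: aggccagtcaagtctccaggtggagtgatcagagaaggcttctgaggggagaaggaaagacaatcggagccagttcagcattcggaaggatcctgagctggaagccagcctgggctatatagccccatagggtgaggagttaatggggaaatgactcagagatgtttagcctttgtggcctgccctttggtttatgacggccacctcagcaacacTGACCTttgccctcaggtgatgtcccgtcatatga
Rassf9, plus strand, chr7:39486007-39486256: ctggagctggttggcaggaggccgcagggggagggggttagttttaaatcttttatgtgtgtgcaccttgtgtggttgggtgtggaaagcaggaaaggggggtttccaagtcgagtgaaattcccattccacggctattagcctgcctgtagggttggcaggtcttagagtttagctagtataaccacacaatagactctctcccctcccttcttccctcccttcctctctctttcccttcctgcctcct
The hexamer, searched on both strands, lies 15 to 10 bases before the start of Pcp4l1 and, as the reverse complement, 35 to 30 bases before the start of C1h11orf86. It is absent from the windows of the other 4 genes with an entry and present in 14.1% of 33469 promoter windows of the same length. TATAAA was found in the windows of Pcp4l1 and Calhm5, against 12.9% of all windows. CCAAT was found in those of Pcp4l1 and Dnd1, against 34.0% of all windows. CACGTG was in none of the 6, against 5.6% of all windows. With 6 windows and motifs this common, the matches describe the letters and carry no test.

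Rassf9 showed the largest CCPB difference of the 8 genes. Its signal was -3.54, -3.56 and -3.78 in CCPB arrays, -2.71, -2.52 and -2.38 in triclosan arrays, -2.26, -2.17 and -2.15 in diclosan arrays, and -1.94, -2.03 and -2.02 in DMSO arrays. The 4 groups followed each other without any overlap, with CCPB lowest, then triclosan, then diclosan, and DMSO highest. The group means were -3.62 ± 0.13 with CCPB, -2.54 ± 0.16 with triclosan, -2.20 ± 0.06 with diclosan and -1.99 ± 0.05 with DMSO (SD, n = 3 each). CCPB minus DMSO was -1.63 (95% confidence interval -1.82 to -1.44), or 3.09-fold lower, and it ranked 13th by size among all genes measured.

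Plscr2 had a signal of -3.50, -3.92 and -3.65 in CCPB arrays, -2.73, -2.50 and -2.42 in triclosan arrays, -2.54, -2.63 and -2.48 in diclosan arrays, and -2.16, -2.36 and -2.27 in DMSO arrays. All CCPB arrays lay below all others, triclosan and diclosan arrays were interleaved, and all 6 of those lay below the DMSO arrays. The means were -3.69 ± 0.21 with CCPB, -2.55 ± 0.16 with triclosan, -2.55 ± 0.07 with diclosan and -2.27 ± 0.10 with DMSO (SD, n = 3 each). The CCPB arrays averaged -1.42 relative to DMSO (interval -1.67 to -1.17), 2.68-fold lower. Plscr1, the neighbouring scramblase gene, was at -0.37 ± 0.06 with CCPB and -0.31 ± 0.02 with DMSO (SD, n = 3 each), a difference of -0.07 that did not pass the test (limma, adjusted p = 0.348). How far related scramblase transcripts bind the Plscr2 probe was not tested.

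Smarcd3 was at -4.58, -4.51 and -4.20 in CCPB arrays, -3.68, -3.49 and -3.57 in triclosan arrays, -3.72, -3.82 and -3.68 in diclosan arrays, and -3.10, -3.31 and -3.37 in DMSO arrays. CCPB arrays were lowest and DMSO arrays highest, and every triclosan array was above every diclosan array by a narrow margin. Relative to DMSO, CCPB gave -1.17 (interval -1.40 to -0.94), 2.25-fold lower. Its paralogs in the same position of the complex were named after their values were seen. Smarcd1 was at 0.13 ± 0.02 with CCPB and 0.02 ± 0.12 with DMSO (adjusted p = 0.253, limma). Smarcd2 was at 3.42 ± 0.03 with CCPB and 3.44 ± 0.03 with DMSO (adjusted p = 0.86, limma; SD, n = 3 each).

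Dnd1 was at -4.53, -4.30 and -4.55 in CCPB arrays, -3.93, -4.45 and -3.74 in triclosan arrays, -3.69, -3.98 and -3.67 in diclosan arrays, and -3.29, -3.24 and -3.39 in DMSO arrays. Triclosan 2 fell among the CCPB arrays, which makes Dnd1 the only one of the 8 genes whose CCPB and triclosan arrays overlapped. The mean was -4.46 ± 0.14 with CCPB, -4.04 ± 0.37 with triclosan, -3.78 ± 0.18 with diclosan and -3.30 ± 0.07 with DMSO (SD, n = 3 each). Its CCPB difference from DMSO was -1.16 (interval -1.52 to -0.79), 2.23-fold lower.

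Calhm5 was at -2.83, -2.72 and -2.74 in CCPB arrays, -2.21, -2.35 and -2.07 in triclosan arrays, -1.99, -2.28 and -1.98 in diclosan arrays, and -1.61, -1.83 and -1.56 in DMSO arrays. Its CCPB arrays were lowest, its triclosan and diclosan arrays overlapped in between, and its DMSO arrays were highest. The difference of CCPB from DMSO was -1.09 (interval -1.32 to -0.86), 2.13-fold lower, the smallest of the 8 differences. Calhm6, the neighbouring gene of the same family, had a CCPB minus DMSO difference of -0.23 (interval -0.41 to -0.04), which missed the threshold (limma, adjusted p = 0.0681).

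Pcp4l1 was at 2.26, 1.96 and 1.95 in CCPB arrays, 1.16, 1.07 and 0.93 in triclosan arrays, 0.88, 0.81 and 0.56 in diclosan arrays, and 0.78, 0.76 and 0.63 in DMSO arrays. CCPB arrays stood apart at the top, triclosan arrays lay above all diclosan and DMSO arrays, and diclosan and DMSO arrays overlapped. The mean was 2.06 ± 0.18 with CCPB, 1.05 ± 0.12 with triclosan, 0.75 ± 0.17 with diclosan and 0.72 ± 0.08 with DMSO (SD, n = 3 each). CCPB minus DMSO was 1.34 (interval 1.1 to 1.58), 2.53-fold higher.

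Colq was near the detection limit outside the CCPB arrays. Its probe was at -3.96, -3.72 and -3.91 in CCPB arrays, -4.91, -4.84 and -4.79 in triclosan arrays, -4.80, -5.04 and -5.76 in diclosan arrays, and -5.13, -5.09 and -5.16 in DMSO arrays. It was well above background on 3 of 3 CCPB arrays and on 1 of 3 arrays of each other group, so the level outside CCPB is poorly known. A probe was kept if well above background on all 3 arrays of a group, and Colq met this through CCPB alone. With arrays under the lowest signal that counted as above background there raised to it, Colq was 2.28-fold higher with CCPB than with DMSO. This is no firm lower bound, since some spots over that signal did not count as above background. With another background correction, given below, the difference was 1.23-fold. The fitted differences of Colq given below (1.26 for CCPB minus DMSO) use spots near the detection limit and are no measured size. Outside CCPB most of those spots were not well above background. A second Colq probe was not well above background on any array, and its means were -7.12 ± 0.05 with CCPB and -7.25 ± 0.27 with DMSO (SD, n = 3 each), so the signal of Colq rests on 1 of 2 probes.

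C1h11orf86 was at -1.47, -1.54 and -1.59 in CCPB arrays, -2.44, -2.54 and -2.45 in triclosan arrays, -2.49, -2.58 and -2.50 in diclosan arrays, and -2.84, -2.37 and -2.91 in DMSO arrays. CCPB arrays were highest by a wide margin, and DMSO 2 lay above all triclosan and diclosan arrays while DMSO 1 and 3 lay below them. Set against DMSO, CCPB gave 1.18 (interval 0.92 to 1.44), 2.26-fold higher.

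**Figure D1:**
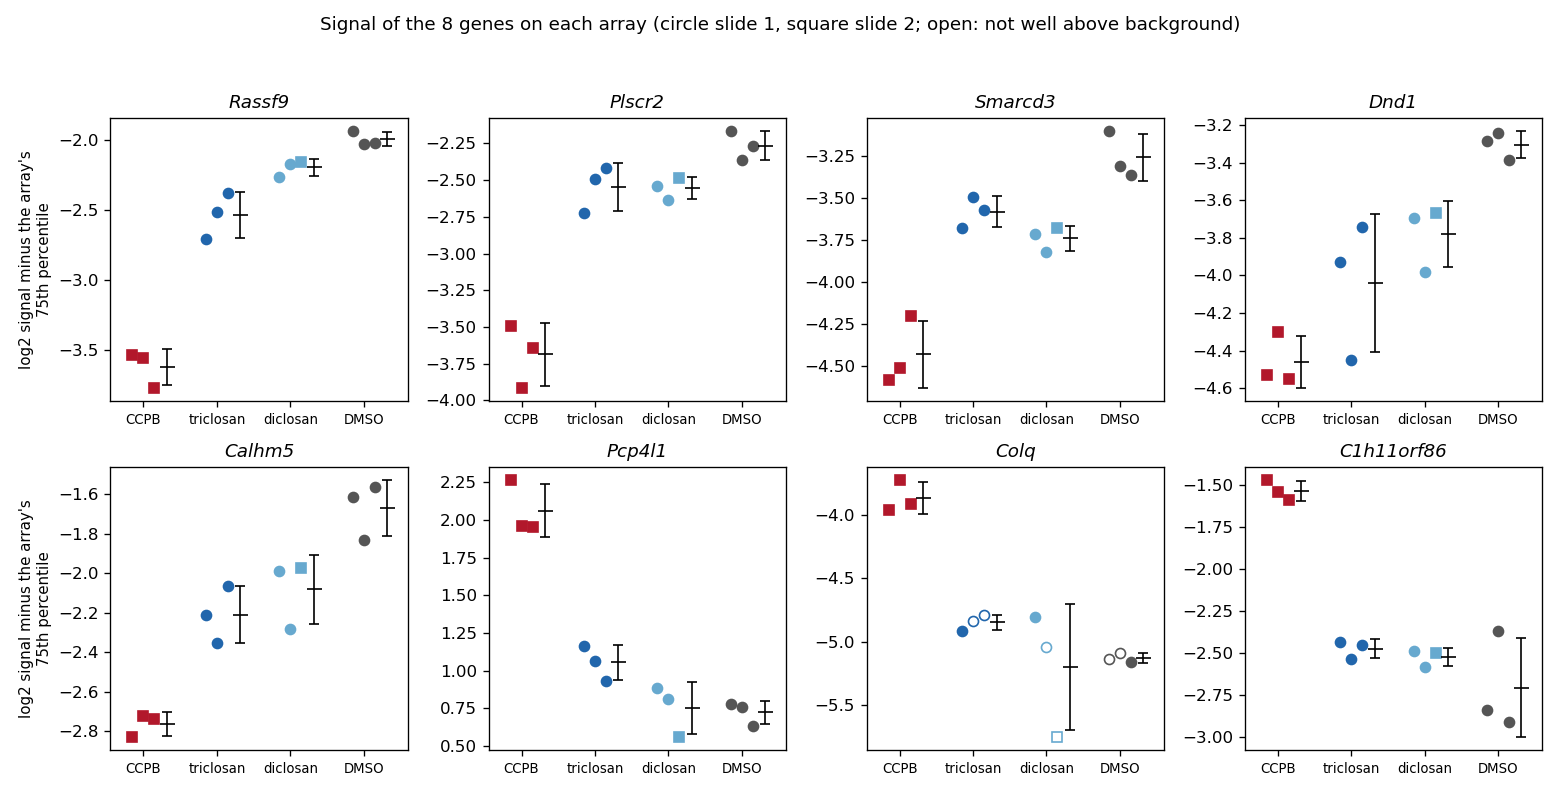
Signal of the 8 genes on each array (y axis: log2 processed signal minus the 75th percentile of the array) for CCPB, triclosan, diclosan and DMSO. Circles are arrays of slide 1, squares arrays of slide 2, open symbols arrays where the probe was not well above background, and black bars give the mean ± SD over 3 arrays. The CCPB arrays lie outside the range of the DMSO arrays for all 8 genes, and the triclosan and diclosan arrays of Rassf9, Plscr2, Smarcd3, Dnd1 and Calhm5 lie between them, except triclosan 2 in Dnd1.

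All 8 CCPB differences had an adjusted p under 0.05 in both fits, which is how the genes were chosen, against 28.3% of all genes in the fit by group, 3.46% in the fit with the slide and 3% that passed the same way in both. Arrays of the groups did not overlap for all 8 genes and for 50.1% of all genes. The median size of the 8 differences was 1.22, against 0.13 for all genes measured. The edge of the choice was narrow in places. Calhm5, the member with the smallest difference, stood at -1.09, and Exo1, the next named gene below it that passed in both fits, stood at -1.08. Dnd1 had an adjusted p of 0.0499 in the fit with the slide, and Rasd1, a gene of at least this size on the other side of the threshold, had 0.0626. In all, 19 named genes passed in both fits with a difference at least as large as that of Calhm5, the 8 genes among them. Size and the fits alone therefore do not set the choice. Rrm2, Epha4, Acot5 and Pdk4, named below as nearest profiles, met both conditions and are not among the 8 genes.

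The arrays that bear on the slide give the following. With the slide as a fixed term, CCPB minus DMSO was -1.69 for Rassf9, -1.52 for Plscr2, -1.26 for Smarcd3, -1.33 for Dnd1 and -1.25 for Calhm5. It was 1.63 for Pcp4l1, 2.10 for Colq and 1.14 for C1h11orf86. This term is estimated from diclosan 3 against diclosan 1 and 2 alone. For Colq that gap was -0.83, diclosan 3 being the dimmest of its arrays and not above background, and the fitted value of Colq with the slide rests on that spot. For Pcp4l1 the gap was -0.29, and for the other 6 genes it lay between 0.03 and 0.17. Over all genes the median size of this gap was 0.11.

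Within slide 2, all 3 CCPB arrays lay beyond diclosan 3 for each of the 8 genes, on the side on which they also differed from DMSO, and for 64.8% of all genes the 3 arrays lay beyond it on one side or the other. Diclosan 3 also sets the slide term by which the genes were chosen, so these values restate the choice and are no separate support. The mean of the CCPB arrays minus diclosan 3 was -1.47 for Rassf9, -1.20 for Plscr2, -0.75 for Smarcd3, -0.79 for Dnd1 and -0.79 for Calhm5. It was 1.5 for Pcp4l1, 1.89 for Colq and 0.97 for C1h11orf86. One diclosan array is the whole basis of these within-slide values.

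**Figure D2:**
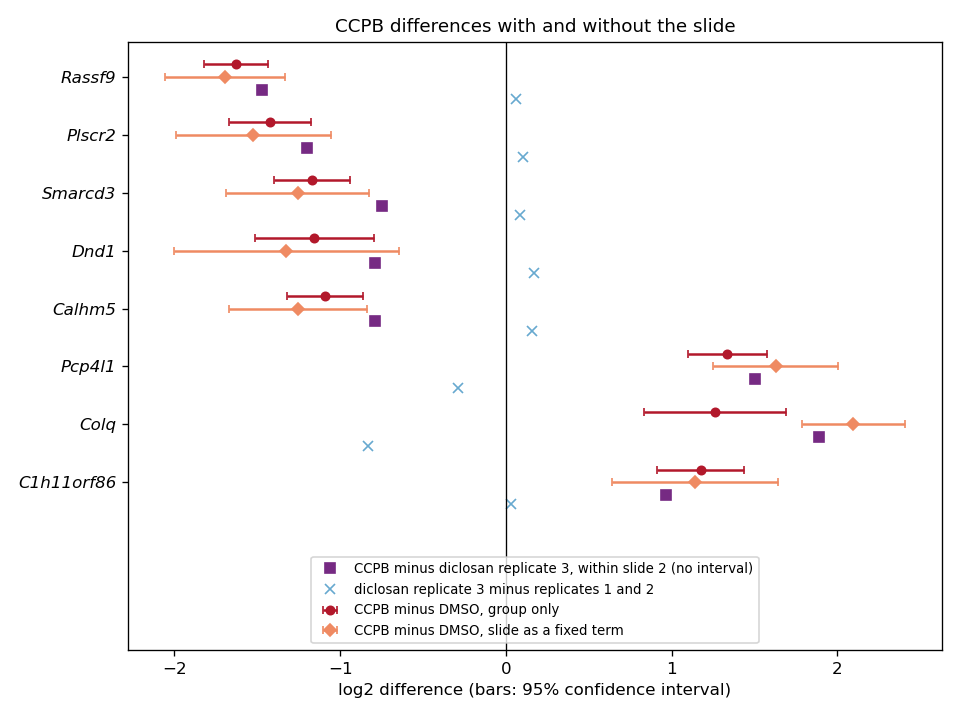
CCPB minus DMSO in the fit by group (red circles) and with the slide as a fixed term (orange diamonds), each with its 95% confidence interval, CCPB minus diclosan 3 within slide 2 (purple squares) and diclosan 3 minus diclosan 1 and 2 (blue crosses), on a log2 axis. All differences that involve CCPB lie on the same side of 0 for each gene, which the choice of the genes favours, and the blue crosses lie near 0 except for Colq at -0.83 and Pcp4l1 at -0.29.

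The size of the differences of dim genes depended on the background correction. When the median spot and background signals were corrected by normexp in place of the scanner's own subtraction, an alternative chosen after seeing the files, CCPB minus DMSO shrank to -0.78 for Rassf9, -0.72 for Plscr2, -0.44 for Smarcd3, -0.37 for Dnd1 and -0.71 for Calhm5. It was 0.30 for Colq and 0.71 for C1h11orf86. Pcp4l1, the only one of the 8 with a signal above the 75th percentile in every array, stood at 1.23. By construction, normexp with an offset of 50 adds a constant to every signal, which shrinks differences of dim genes most.

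Triclosan was the next comparison, all on slide 1. It shares the DMSO arrays with the choice of the genes, and none of the 8 passed the test against DMSO, where 0.0639% of all genes passed. At an unadjusted p under 0.05, 6 of the 8 genes and 2359 of all 20359 passed. Rassf9 came nearest, at -0.54 (interval -0.73 to -0.35; limma, adjusted p = 0.0618). Calhm5 stood at -0.54 (interval -0.77 to -0.31; adjusted p = 0.0928) and Dnd1 at -0.74 (interval -1.1 to -0.38; adjusted p = 0.149). Smarcd3 was at -0.32 (adjusted p = 0.275), Plscr2 at -0.28 (adjusted p = 0.375), Pcp4l1 at 0.33 (adjusted p = 0.28), Colq at 0.28 (adjusted p = 0.622) and C1h11orf86 at 0.23 (adjusted p = 0.485). The arrays of triclosan and DMSO did not overlap for 7 of the 8 genes, C1h11orf86 being the exception, and for 19% of all genes. Since the same DMSO arrays helped choose the genes, that count is given as a description.

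Diclosan arrays lay closer to DMSO for most of the 8 genes, and none passed, against 0.00982% of all genes. This comparison too shares the DMSO arrays with the choice of the genes, and diclosan 3 set the slide term used there. Its counts are therefore given as a description. At an unadjusted p under 0.05, 5 of the 8 genes and 2152 of all genes passed. Smarcd3 had the largest difference at -0.48 (interval -0.71 to -0.25; limma, adjusted p = 0.204), with Dnd1 at -0.48 (adjusted p = 0.372), Calhm5 at -0.41 (adjusted p = 0.24), Plscr2 at -0.29 (adjusted p = 0.406) and Rassf9 at -0.20 (adjusted p = 0.448). Pcp4l1 was at 0.03 (interval -0.21 to 0.27; adjusted p = 0.947), Colq at -0.07 (interval -0.50 to 0.36; adjusted p = 0.918) and C1h11orf86 at 0.19 (interval -0.08 to 0.45; adjusted p = 0.61). Arrays of diclosan and DMSO did not overlap for the 5 genes that were lower with CCPB, and overlapped for the 3 that were higher, against 16.1% of all genes that did not overlap. The diclosan difference of Colq was 0.21 on slide 1 alone, without diclosan 3. With the slide as a fixed term none of the 8 genes passed in either comparison, against 0.226% of all genes for triclosan and 0.0147% for diclosan.

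**Figure D3:**
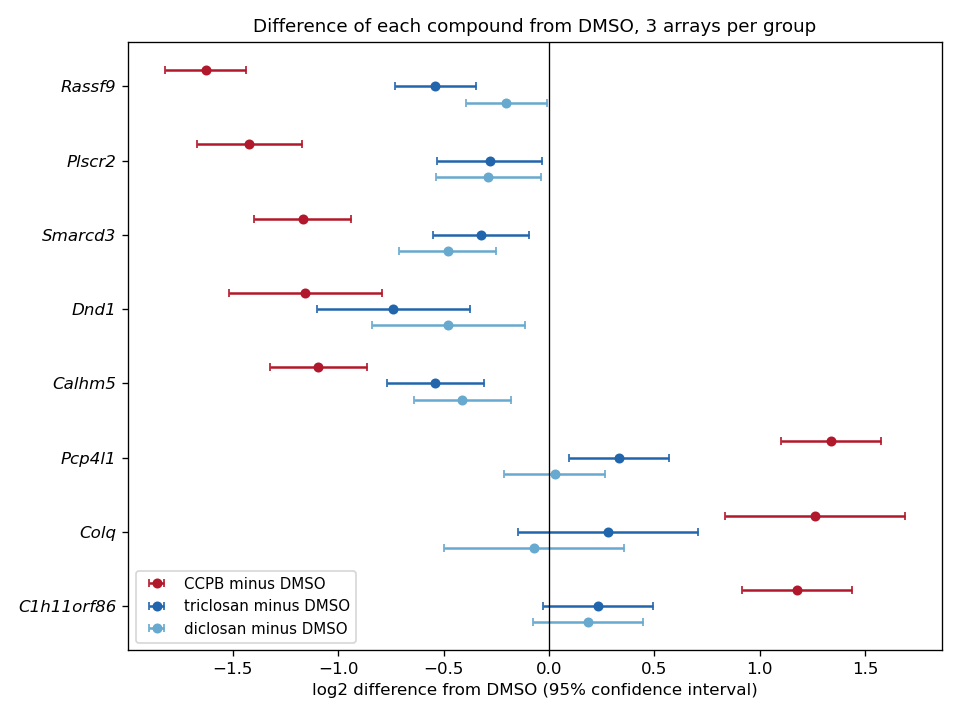
Difference of CCPB (red), triclosan (blue) and diclosan (light blue) from DMSO on a log2 axis, with the 95% confidence interval from the fit of all 12 arrays. For the 5 lower genes all 3 compounds lie left of 0, with CCPB farthest, and for Pcp4l1, Colq and C1h11orf86 CCPB lies between 1.18 and 1.34 while diclosan lies between -0.07 and 0.19.

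Triclosan against diclosan is the comparison least tied to the choice of the genes, since it shares no array with CCPB or DMSO and diclosan arrays entered only through the slide term. None of the 8 genes and 0% of all genes passed, and at an unadjusted p under 0.05 2 of the 8 genes and 1391 of all genes passed. Rassf9 was at -2.54 ± 0.16 with triclosan and -2.20 ± 0.06 with diclosan (SD, n = 3 each), a difference of -0.34 (interval -0.53 to -0.15; limma, adjusted p = 0.501). Pcp4l1 was 0.30 higher with triclosan (interval 0.07 to 0.54; adjusted p = 0.635). Their arrays did not overlap, nor did those of Smarcd3, whose difference was 0.16 (interval -0.07 to 0.39; adjusted p = 0.858), and groups did not overlap for 9.94% of all genes. Plscr2 differed by 0.01 (interval -0.24 to 0.26), Calhm5 by -0.13 (interval -0.36 to 0.10), Dnd1 by -0.26 (interval -0.62 to 0.10) and Colq by 0.35 (interval -0.07 to 0.78), or by 0.07 without diclosan 3, on arrays mostly not above background. C1h11orf86 differed by 0.05 (interval -0.21 to 0.31). A missed threshold does not show that the chlorine by which triclosan differs from diclosan makes no difference to these genes.

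CCPB was set against each hydroxylated compound at the same dose and time, and since its arrays chose the genes these values are a description. CCPB minus triclosan was -1.09 for Rassf9 (interval -1.28 to -0.90), -1.14 for Plscr2 (interval -1.39 to -0.89), -0.85 for Smarcd3 (interval -1.08 to -0.62) and -0.55 for Calhm5 (interval -0.78 to -0.32). It was -0.42 for Dnd1 (interval -0.78 to -0.06), and -0.62 without triclosan 2. It was 1.01 for Pcp4l1 (interval 0.77 to 1.24), 0.98 for Colq (interval 0.55 to 1.41) and 0.94 for C1h11orf86 (interval 0.68 to 1.20). Of the 8 genes 7 were past the threshold, against 20.5% of all genes, and 4 with the slide as a fixed term, against 1.41%. Arrays of CCPB and triclosan did not overlap for 7 of the 8 genes and for 43.4% of all genes.

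CCPB minus diclosan, the pair with equally many chlorine atoms that differs by the hydroxyl group and by the place of a chlorine, was -1.43 for Rassf9 (interval -1.62 to -1.24), -1.13 for Plscr2 (interval -1.38 to -0.88), -0.69 for Smarcd3 (interval -0.92 to -0.46), -0.68 for Dnd1 (interval -1.04 to -0.32) and -0.68 for Calhm5 (interval -0.91 to -0.45). It was 1.31 for Pcp4l1 (interval 1.07 to 1.55), 1.33 for Colq (interval 0.91 to 1.76) and 0.99 for C1h11orf86 (interval 0.73 to 1.25). CCPB arrays and diclosan 3 entered the choice of the genes, and Colq entered the tested genes through its CCPB arrays alone. The counts that follow are therefore a description and carry no test. All 8 were past the threshold, against 14.4% of all genes, and 7 with the slide as a fixed term, against 4.95%. Arrays of CCPB and diclosan did not overlap for all 8 genes and for 32.3% of all genes. The difference of Dnd1 was no longer past it with the slide as a fixed term, where it was -0.79, nor without filtering dim probes, with normexp correction, or without diclosan 1, CCPB 1 or CCPB 3.

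Partner genes were taken from the families and complexes of the 8 genes. From 7 lists of partner genes, which hold 101 genes, 63 were measured, of which 6 passed as higher and 9 as lower with CCPB against DMSO (14.3% and 14% of all genes), and their median difference was -0.01, against 0.01 for all genes. The lists were put together with earlier results of these data known. With the slide as a fixed term 2 of the 63 passed, Gjb2 as higher and Phf10 as lower, which is near the 3.46% of all genes in that fit. Leaving out any single CCPB or DMSO array left 8 or 9 of the 63 past the threshold, and 18% to 19.6% of all genes.

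Among the Ras-association and partner genes of Rassf9, 2 of 12 measured rose and 3 fell. Pam, the enzyme that Rassf9 binds, named after its value was seen, was among the falls at -0.20 (limma, adjusted p = 0.00598, and -0.21 with an adjusted p of 0.174 with the slide as a fixed term). Rassf6 was at -0.11 (adjusted p = 0.0633) and Rassf3 at 0.14 (adjusted p = 0.207). Of 7 measured scramblase and flippase genes 2 rose and 1 fell, with Xkr8, a scramblase of apoptotic cells, at 0.31 (adjusted p = 0.000772, and 0.23 with an adjusted p of 0.114 with the slide) and the flippase Atp11a at -0.06 (adjusted p = 0.504). Plscr3, a relative of Plscr2 named after its value was seen, was the gene that fell, at -0.48 (adjusted p = 0.00187, and -0.25 with an adjusted p of 0.268 with the slide).

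Of 15 measured BAF subunits 2 fell and none rose. Phf10, a subunit of the polybromo form of the complex, was at 3.65 ± 0.02 with CCPB and 4.07 ± 0.03 with DMSO (SD, n = 3 each), a difference of -0.42 (limma, adjusted p = 0.000296, and -0.25 with an adjusted p of 0.04 with the slide). The catalytic subunit Smarca4 was at -0.03 (adjusted p = 0.623). Of 10 measured Nanos and CCR4-NOT genes 1 fell, and the scaffold Cnot1 was at 0.06 (adjusted p = 0.347) and the deadenylase Cnot8 at -0.01 (adjusted p = 0.83).

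Of 11 measured large-pore channel genes 1 rose and 1 fell. Gjb2, which encodes the gap junction protein connexin 26 of hepatocytes, was at 3.75 ± 0.06 with CCPB, 3.53 ± 0.03 with triclosan, 3.45 ± 0.09 with diclosan and 3.25 ± 0.05 with DMSO (SD, n = 3 each). CCPB minus DMSO was 0.51 (interval 0.39 to 0.62; limma, adjusted p = 0.000162, and 0.65 with an adjusted p of 0.00534 with the slide). The volume-regulated channel subunit Lrrc8a was at -0.06 (adjusted p = 0.488). Of 5 measured calmodulin and IQ-motif genes 1 rose, while Calm3 was at 0.08 (adjusted p = 0.073). Of 3 measured cholinesterase-anchoring genes the heparan sulphate proteoglycan Agrn fell at -0.37 (adjusted p = 0.0282, and -0.15 with an adjusted p of 0.731 with the slide), Bche was at 0.13 (adjusted p = 0.218), and the acetylcholinesterase gene Ache, whose product Colq anchors, was not well above background on all 3 arrays of any group.

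Genes next to the members on the chromosome, taken from the order of genes in the RefSeq table and picked after values were seen, were measured for 9 of 16 positions. Of these 9 neighbours 2 passed for CCPB against DMSO in the fit by group, against 28.3% of all genes. In both fits 1 of the 9 passed, against 3% of all genes. Pcp4l1 lies beside Nr1i3, which encodes the nuclear receptor CAR, a sensor of foreign compounds that drives cytochrome P450 genes in liver. Nr1i3 was at 0.20, 0.30 and 0.32 in CCPB arrays, -0.16, -0.33 and -0.35 in triclosan arrays, -0.43, -0.35 and -0.23 in diclosan arrays, and -0.62, -0.36 and -0.63 in DMSO arrays. CCPB arrays were above all others, triclosan arrays were narrowly above DMSO arrays, and diclosan arrays overlapped with both. CCPB minus DMSO was 0.81 (interval 0.62 to 1.00; limma, adjusted p = 2e-04), and 0.65 with an adjusted p of 0.0491 with the slide as a fixed term.

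Colq lies beside Hacl1, which encodes a peroxisomal enzyme of fatty acid alpha-oxidation, and beside Eaf1, a transcription elongation factor. Hacl1 was at 2.29, 2.23 and 2.29 in CCPB arrays, 1.89, 1.98 and 1.94 in triclosan arrays, 1.87, 1.90 and 1.99 in diclosan arrays, and 1.82, 1.84 and 1.95 in DMSO arrays. CCPB minus DMSO was 0.40 (interval 0.30 to 0.51; limma, adjusted p = 0.000379), and 0.30 with an adjusted p of 0.0736 with the slide. Eaf1 was at -0.10 (adjusted p = 0.316). The neighbours of the other members that were measured did not pass: Wdr55 and Hars1 beside Dnd1 were at 0.08 (adjusted p = 0.47) and -0.07 (adjusted p = 0.343), Chpf2 beside Smarcd3 at -0.14 (adjusted p = 0.124) and Pc beside C1h11orf86 at 0.05 (adjusted p = 0.462). None of the neighbours of Rassf9 was measured.

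**Figure D4:**
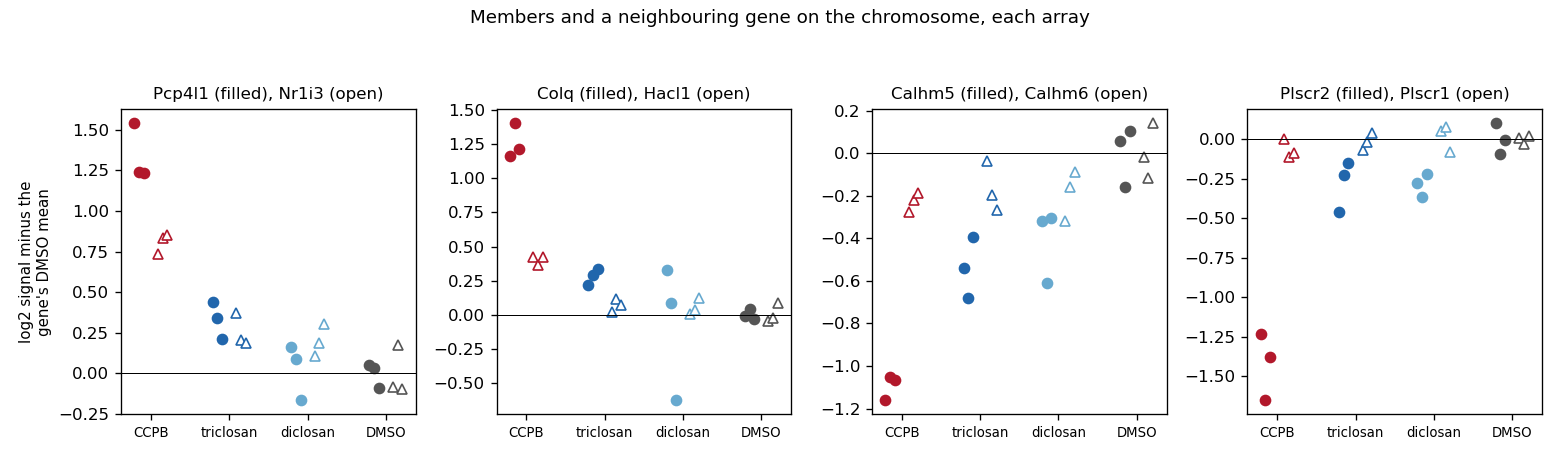
Signal of 4 members (filled circles) and a neighbouring gene on the same chromosome (open triangles) on each array, on a log2 scale, as the difference from the gene's own mean over DMSO arrays, for CCPB, triclosan, diclosan and DMSO. Nr1i3 and Hacl1, beside Pcp4l1 and Colq, lie higher on all 3 CCPB arrays than on any other array. Their triclosan and diclosan arrays also lie above 0 or close to it. They are the 2 of 9 measured neighbours that passed in the fit by group, and Hacl1 did not pass with the slide as a fixed term. Calhm6 and Plscr1 stay nearer to 0 on CCPB arrays than Calhm5 and Plscr2 do. Eaf1, the other neighbour of Colq, is not shown.

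The genes whose profile over the 12 arrays lay nearest to a member, measured as the root mean square of the difference between their log2 values after each was centred on its own mean, were named among the 10685 genes with a symbol. Nearest to Rassf9 were Plscr2 (0.18) and the ephrin receptor gene Epha4 (0.23), against a median distance of 0.64 over all named genes. Nearest to Plscr2 were Rrm2, the small subunit of ribonucleotide reductase (0.10), and Scrn1 (0.17). Rrm2 was at 0.89 ± 0.16 with CCPB and 2.15 ± 0.02 with DMSO (SD, n = 3 each), CCPB minus DMSO -1.25. Nearest to Smarcd3 were the mitotic kinesin gene Kif20a (0.14) and the cyclin B1 gene Ccnb1 (0.15), at -0.96 and -0.86 with CCPB minus DMSO. Nearest to Dnd1 were Calhm5 (0.15) and Il1rl1, the receptor of interleukin 33 (0.22). Nearest to Calhm5 were the Notch ligand gene Jag1 (0.13) and the carbonic anhydrase gene Car3 (0.14).

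Of the genes that were higher, Pcp4l1 was nearest to the peroxisomal thioesterase gene Acot5 (0.16) and to Pdk4, a kinase that restrains pyruvate dehydrogenase (0.18). Colq was nearest to Pcp4l1 (0.19) and Acot5 (0.22), and C1h11orf86 to Acot5 (0.12) and Zap70 (0.15). Acot5 was thus in the list of all 3, at -0.86 ± 0.09 with CCPB, -1.67 ± 0.10 with triclosan, -1.90 ± 0.15 with diclosan and -2.03 ± 0.23 with DMSO (SD, n = 3 each). These distances describe 12 arrays that share 4 groups and 2 slides, and they carry no test.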

How the data were processed

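The study comprises 12 single-colour rat arrays from Agilent in 4 groups of 3 (CCPB, triclosan, diclosan and DMSO), taken from the sample labels. Per the file headers, the authors' scanner files were made with Agilent Feature Extraction 10.7.1.1 and hold a background-subtracted linear intensity per spot, not scaled between arrays. A table of processed values, deposited by the authors as a linear signal, served as an alternative. Signal over background limits the precision of dim probes, and 3 arrays per group limit that of all.

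Spots of a probe were averaged as log2, the 75th percentile of the array was subtracted, and probes well above background on all 3 arrays of a group were kept (24254 of 45579). Accessions were named through a rat RefSeq table (build GRCr8, names and gene order only), which gave symbols for 21218 probes, and the brightest kept probe stood for a gene. All 9 probes of the 8 genes were looked at, and 8 were kept. All 12 arrays were fitted by group with limma 3.58.1 in R 4.3.3 (two-sided, Benjamini-Hochberg over 20359 genes, threshold 0.05, 95% intervals unadjusted), and again with the slide as a fixed term, with figures from matplotlib 3.10.9. The fits were also run on simulated data with independent noise and no slide effect, which cannot bear on how the slide and CCPB are tied. Alternatives were scaling (median, quantile), background correction, filters, probe averages, single slides or groups, the replicate number as a block, and leaving out arrays.

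The 8 genes and all lists were chosen with earlier results of these data known. Named genes were all members with every probe, the 2 nearest profiles per member, and from each partner list up to 4 genes with the smallest p that passed in both fits, or the 2 brightest where fewer than 2 passed. Genes outside this rule are said to be named after their values were seen. The value of 1 gene that this rule names is not reported here. Same-numbered arrays did not deviate together (median correlation -0.014 over 18 pairs), so the numbers do not pair the arrays.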

Additional observations from a re-analysis of the deposited data

How the results depend on the processing

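No alternative reversed the sign of a called difference. The 8 genes were chosen for passing CCPB against DMSO in both fits. Passing it again with the same arrays processed in another way is therefore no separate support, and these counts are a description. The counts for CCPB against triclosan and against diclosan share the CCPB arrays with the choice. The count of the 8 genes past the threshold for CCPB against DMSO was 8, also with the replicate number as a block alone, with these exceptions. It was 7 of 7 measured when only probes above background on all 12 arrays were kept. With the block beside the slide as a fixed term it was 5, and Smarcd3, Dnd1 and C1h11orf86 missed the threshold at -1.19, -1.26 and 1.02. For triclosan against DMSO the count of 0 became 1, Rassf9, with normexp correction (adjusted p = 0.0237) and when only probes above background on all 12 arrays were kept (adjusted p = 0.0486). Over all its alternatives the adjusted p of Rassf9 there ran between 0.0237 and 0.307. For CCPB against triclosan the count of 7 became 4 with the slide, 2 with the block and the slide, and 8 without triclosan 2, where Dnd1 passed at -0.62. For CCPB against diclosan the count of 8 became 7 with the slide and 5 with the block and the slide. The other settings in which Dnd1 missed the threshold are given above. On slide 2 alone diclosan has 1 array, so only the differences given above are read there. The counts for diclosan against DMSO and for triclosan against diclosan stayed at 0 under every alternative run. The 15 partner genes past the threshold became 6 with median centring, 9 without a filter on dim probes and 2 with the slide. They became 1 with the block and the slide (13 with the block alone), and 8 to 9 without any single CCPB or DMSO array. Of all genes 28.3% passed in the fit by group, 3.46% with the slide, and 18% to 19.6% without any single CCPB or DMSO array. The count of all genes was also lower with median centring and without the filter on dim probes, and higher with normexp correction. The cause was not tested. As far as the labels tell, the block shares only a number between arrays, and 2 of 12 arrays correlated best with their own number. Colq could not be given when only probes above background on all arrays were kept. Where depth of signal is low, as for Colq, Dnd1 and Smarcd3, fold sizes depend on the background correction most.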
